A study of Mus musculus with 20 samples.

Results

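C12, ih_CTC and ih_DCTC are cell lines that the submitters label as host myeloid cells turned malignant beside a human glioma stem cell line, SU3, and this comparison set the equal-weight mean of these 3 lines against MSC, normal mouse bone marrow mesenchymal stem cells. The comparison used 11 of the 20 libraries of the study, 3 for each line and 2 for MSC, all chosen by their cell type label. By their labels, C12 arose from macrophages transformed in culture with SU3 and washings of the peritoneum. The source of ih_CTC is given as a macrophage out of a tumour graft in the peritoneum, and that of ih_DCTC as dendritic cells of the marrow grown with SU3 in a dish. The strain given for every group, MSC included, is the nude mouse, and the medium is DMEM with 10% fetal bovine serum. The labels speak of monoclonal culture, so each line may be 1 clone, and they name no animal, date, batch or passage. The p-values below therefore measure only the spread between libraries within groups, which may be technical. The groups outside this comparison were ih_BCTC, labelled as oligodendrocytes from a brain tumour, ih_STC_BM, labelled as transformed mesenchymal stem cells, and MDSC, myeloid cells that restrain immune responses. They entered the model to estimate the spread, and their levels are given where they bear on a result. The mean of the 3 lines was also tested against ih_STC_BM, as a second comparison.

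Mesenchymal stem cells are the stromal cells of bone marrow. They lay down fibrillar collagen and other matrix, feed blood-forming cells with factors such as the chemokine CXCL12, can turn into bone, cartilage or fat cells, and in culture often take on the contractile fibres of myofibroblasts. Macrophages and dendritic cells are blood cells that carry the leukocyte antigen CD45, encoded by Ptprc, and normally make little fibrillar collagen. The question was which stromal genes the lines shared with MSC and which they lacked.

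Markers went against the labels on both sides. Levels here are CPM, counts scaled to library size with TMM factors. Ptprc was at 0.659, 0.439 and 1.18 CPM in C12, 0.288, 0.163 and 0.257 in ih_CTC, 0.374, 0.376 and 0.272 in ih_DCTC and 236 and 191 in MSC, so every MSC library lay far above every line (log2 fold change -9.03 ± 0.26 (SE), adjusted p = 1.3e-13). Csf1r, the receptor macrophages depend on, was at 0.274 to 5.06 CPM in the 9 line libraries (median 3.11) against 942 and 1020.0 CPM in MSC (log2 fold change -8.41 ± 0.49 (SE), adjusted p = 2.4e-10). All 23 macrophage and monocyte genes and all 18 pan-leukocyte genes tested were lower in the lines, beside 21.9% of all genes tested. The summed level of the macrophage genes was 31434 and 23737 CPM in MSC, 73.0 to 259 in the lines and 8957 on average in MDSC. For the pan-leukocyte genes these sums were 8721 and 6129 CPM in MSC and 18.1 to 206 in the lines. The 11 dendritic cell markers summed to 3.85 to 14.9 CPM in the lines, with Cd209a and Siglech at 0 counts in all 9 line libraries, against 442 and 202 in MSC. Only 3 of these 11 were called lower, beside 21.9% of all genes, and 8 did not pass the threshold. Of 7 MHC class II genes tested, 5 were lower, 1 was higher and 1 did not pass. The lines are therefore called by their label names here, and the MSC libraries are mesenchymal stem cells by label with a large macrophage signal. Granulocyte markers summed to 23.4 CPM in MSC 1, 209.9 in MSC 2 and 20.6 to 655 in the lines, with the highest sum in ih_DCTC 3. Of these 12 markers 10 were lower in the lines, and the 1 higher one, Lcn2, was at 13.2 to 642 CPM in them. Endothelial markers summed to 96.4 and 149 CPM in MSC and 5.22 to 29.8 in the lines. In such bulk samples fewer cells of a type and less RNA per cell cannot be told apart. The part of these blood cell transcripts in each stromal result below was not tested.

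**Figure D1:**
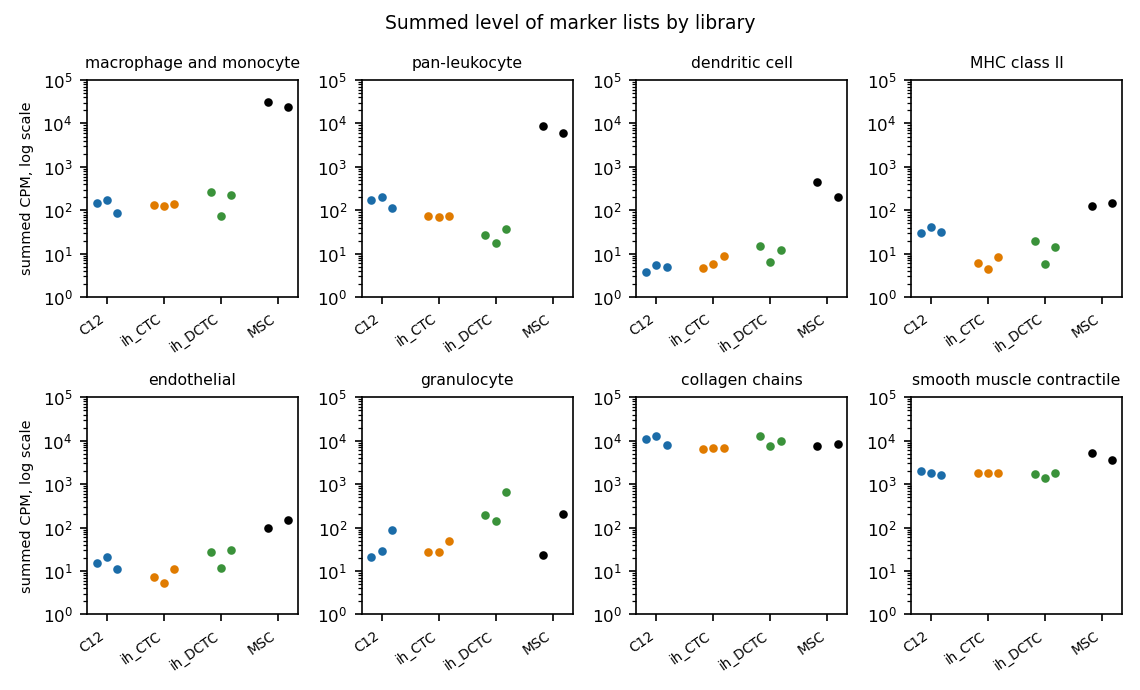
Summed level, in TMM-scaled CPM on a log axis, of 8 marker lists in each library of C12, ih_CTC, ih_DCTC and MSC, with 1 point per library. Macrophage and pan-leukocyte sums of MSC lie far above all 9 line libraries, collagen chain sums overlap, and contractile sums of MSC lie above the lines.

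Total counts were 9063824 to 12094424 in the 11 libraries, and 67.4% to 77% of their reads were mapped. The share of reads in introns ran from 1.02% to 7.32% in the lines and was 2.07% and 3.09% in MSC. Libraries were compared by profile distance, taken over tested genes as the root mean square of their differences in log2 CPM. The library numbered ih_DCTC 2 here was nearest to ih_BCTC 2, at a distance of 0.459, against 1.10 to ih_DCTC 1 and 0.873 to ih_DCTC 3. It was the nearest library of each ih_BCTC library too, at 0.459 to 0.545, while those were 0.595 to 0.625 apart. ih_DCTC 2 was also the nearest library of both ih_DCTC 1 and ih_DCTC 3, which were 1.13 apart. The 2 MSC libraries were 0.719 apart, those within each line 0.474 to 1.32 and those of MDSC 0.413 to 0.417. The model's estimate of the spread pools these unlike groups. The 9 line libraries were 1.94 to 2.22 from MSC, and those of ih_STC_BM 2.01 to 2.21.

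The lines differed from MSC in 5910 of 15779 genes tested, 2451 higher and 3459 lower in the lines, by edgeR's quasi-likelihood test at a Benjamini-Hochberg adjusted p under 0.05.  Of 248 stromal genes in 15 lists, 231 had counts enough to be tested. Of these, 135 were called (58.4%, beside 37.5% of all genes tested): 61 were higher (26.4%, beside 15.5%) and 74 lower (32.0%, beside 21.9%). Their median log2 fold change was -0.05, beside 0.02 over all genes, and their median absolute change was 1.75, beside 0.83. In 46 of the 61 higher genes all 9 line libraries lay above both MSC libraries, and in 54 of the 74 lower genes all lay below, 19.9% and 23.4% of the 231 beside 12.3% and 17.4% of all genes. Leaving out ih_DCTC 2 gave 61 higher and 74 lower stromal genes. Without MSC 1 the counts were 27 and 59, and without MSC 2 they were 42 and 64, with the lone MSC library assumed to vary like the other groups. MDSC, the blood cell group, had at least 5 CPM of 72 of the 231 stromal genes tested. These included 22 of the 74 lower and 18 of the 61 higher ones, much the same share. Among the stromal genes with under 5 CPM in MDSC, 43 were higher and 52 lower, a split chosen after seeing the data. The share over all genes under that limit was not computed. MDSC was not a macrophage group by its markers. On average granulocyte genes summed to 42906 CPM in it, erythroid genes to 15676 and macrophage genes to 8957. Low levels in MDSC, here and below, therefore do not show low levels in macrophages.

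**Figure D2:**
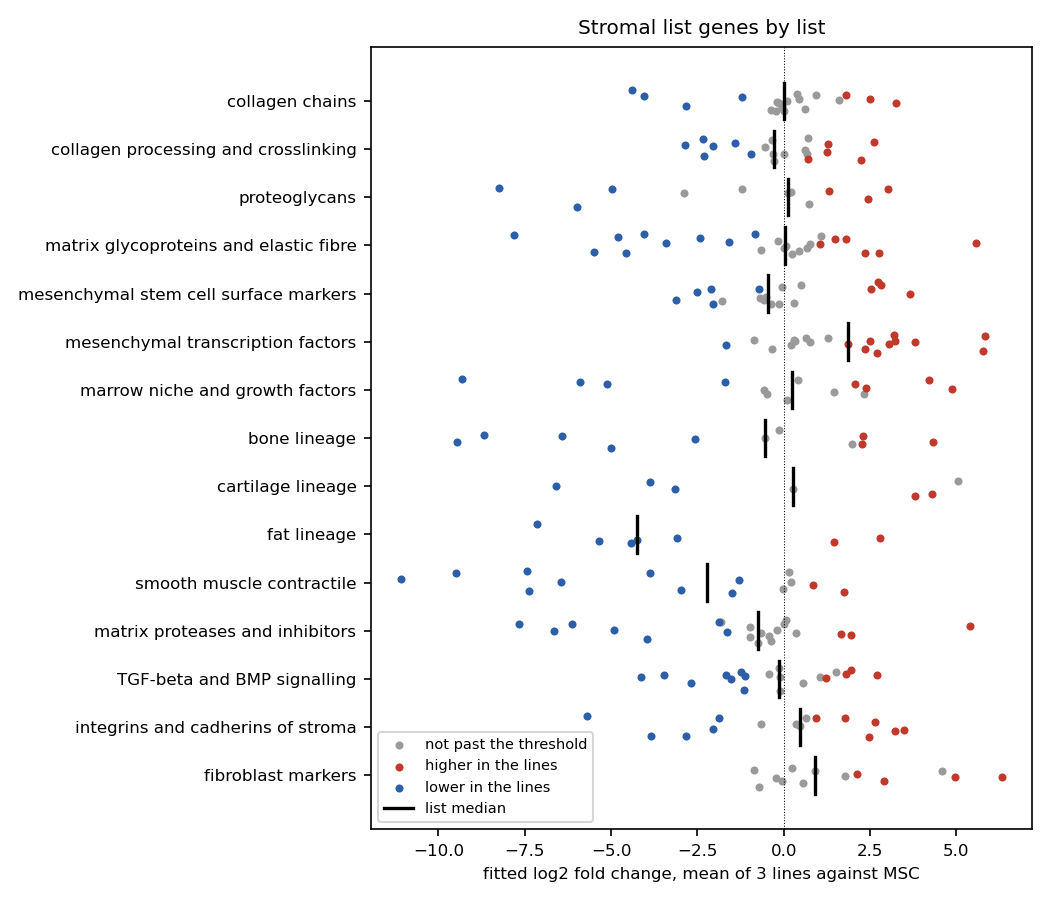
Fitted log2 fold change of each tested stromal gene, mean of the 3 lines against MSC, in 15 lists; each point is a gene, coloured by its call, and the black bar is the list's median. Mesenchymal transcription factors lie mostly to the right (median 1.87), and fat lineage (-4.25) and contractile genes (-2.22) mostly to the left. Fitted values of genes with 3 or fewer counts in a group depend on the prior count.

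Many of the listed stromal genes were detected on both sides, though often at different levels. Of the 248 genes, 128 had at least 5 CPM in all 11 libraries: 64 of them did not pass the threshold, 37 were higher and 27 lower in the lines. For 18 of those 64, the 95% interval of the difference lay within 1 on the log2 scale. Over all genes tested, of any level and call, 16.7% had such an interval. At the other end, of 177 stromal genes with at least 5 CPM in both MSC libraries, 6 were under 1 CPM in all 9 line libraries: Postn, Igf1, Ibsp, Dlx5, Actg2 and Lmod1. These encode a matrix protein, a growth factor, a bone matrix protein, a bone transcription factor, a smooth muscle actin and a smooth muscle actin-binding protein. MDSC means of these 6 were at most 2.87 CPM. The reverse pattern, at least 5 CPM in all 9 line libraries and under 1 CPM in both MSC, was met by none of the 248 genes. The shares of all genes that met these CPM limits were not computed.

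**Figure D3:**
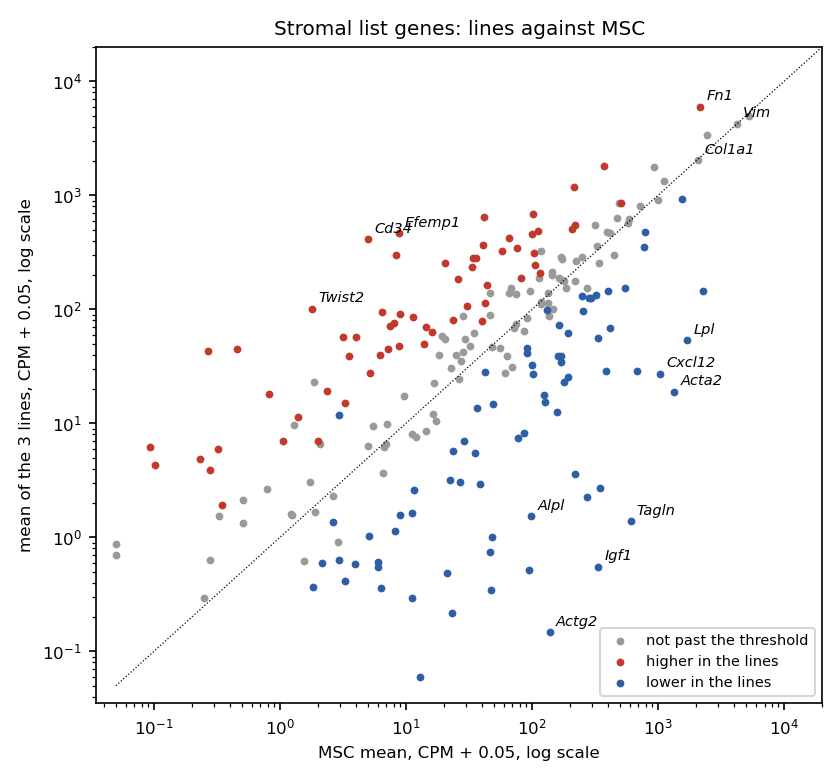
Mean level of each tested stromal gene in the 3 lines against its mean in MSC, in CPM plus 0.05 on log axes, coloured by call; the dotted line marks equal levels. Col1a1 and Vim lie near the line, Igf1, Tagln and Actg2 far below it and Cd34 and Twist2 far above.

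Both chains of type I collagen were expressed on both sides, with overlapping levels. Type I collagen, the main fibre of bone and skin, is built from the chains encoded by Col1a1 and Col1a2. Col1a1 (ENSMUSG00000001506) was at 2256, 2582 and 1777 CPM in C12, 1624, 1635 and 1447 in ih_CTC, 2644, 2123 and 2268 in ih_DCTC and 1948 and 2205 in MSC. Lines and MSC overlapped, with log2 fold change -0.05 ± 0.44 (SE), adjusted p = 0.96 and a 95% interval of -0.97 to 0.87. Col1a2 was at 5319, 6111 and 3389.7 CPM in C12, 1891, 2046 and 2342 in ih_CTC, 3508, 2477 and 3308 in ih_DCTC and 2146 and 2756 in MSC; the groups overlapped as well (log2 fold change 0.37 ± 0.37 (SE), adjusted p = 0.47). MDSC had 2.51 and 4.84 CPM of the same 2 genes. Col3a1, the type III chain, was at 241, 199.6 and 232 CPM in C12, 1019.6, 1143 and 1081 in ih_CTC, 1835, 748 and 1238 in ih_DCTC and 669 and 319 in MSC (log2 fold change 0.45 ± 0.58 (SE), adjusted p = 0.59), with C12 below both MSC libraries and the other two lines above. Other fibrillar chains differed, among them Col5a3, Col5a2 and Col11a1. Over the collagen chains, 3 of 19 tested genes were higher (Col5a3, Col7a1 and Col16a1) and 4 lower (Col5a2, Col11a1, Col12a1 and Col15a1), with a median of 0.00 beside 0.02 over all genes. These counts are near the shares of all genes tested, 15.5% higher and 21.9% lower. The same shares apply beside each list's counts with all libraries below. Leaving out an MSC library also lowered the calls over all genes, as given at the end. A fall in a list's count is then not by itself particular to that list. Col7a1 lost its call under 13 of the 24 alternatives tried for single genes, such as leaving out 1 library, and Col5a2 under 5. Col16a1, a minor fibril-associated chain, was at 239.8 to 417 CPM in the 9 line libraries (median 334) against 49.2 and 65.9 CPM in MSC, with every line library higher (log2 fold change 2.49 ± 0.45 (SE), adjusted p = 2.3e-04). Col12a1, another fibril-associated chain, was at 18.4 to 163 CPM in the 9 line libraries (median 48.9) against 508 and 322 CPM in MSC, all lower (log2 fold change -2.83 ± 0.58 (SE), adjusted p = 8.2e-04). Collagen chains called higher numbered 1 without MSC 1 and 1 without MSC 2, and those called lower numbered 2 without C12.

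**Figure D4:**
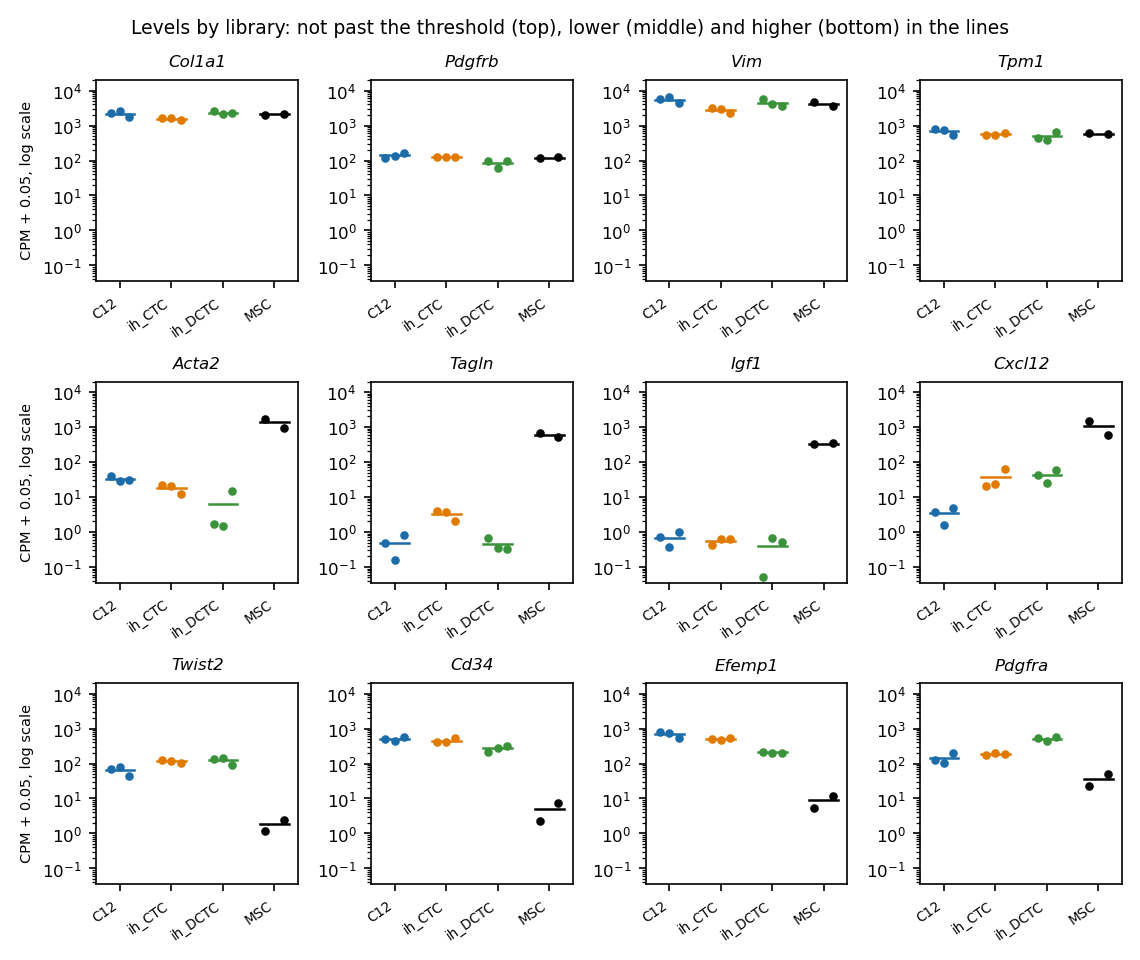
Level of 12 stromal genes in each library, in CPM plus 0.05 on a log axis, by group; points are libraries and bars are group means. Col1a1, Pdgfrb, Vim and Tpm1 overlap between lines and MSC, Acta2, Tagln, Igf1 and Cxcl12 are below MSC in all 9 line libraries, and Twist2, Cd34, Efemp1 and Pdgfra are above.

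Enzymes that modify, trim and crosslink collagen were split, with 5 of 19 tested genes higher and 6 lower in the lines (median -0.27). The higher genes were Plod2, Serpinh1, Pcolce, Adamts14 and Loxl4, and the lower ones P4ha3, Plod1, Crtap, Bmp1, Adamts2 and Loxl2. Serpinh1 lost its call under 13 of the 24 alternatives, and Plod1 under 10. Fkbp10, a collagen chaperone of the endoplasmic reticulum, was at 66.7 to 262 CPM in the 9 line libraries (median 129.5) against 127 and 139 CPM in MSC and overlapped (log2 fold change 0.00 ± 0.31 (SE), adjusted p = 1). Crtap, part of the collagen prolyl 3-hydroxylase complex, was at 17.9 to 49.4 CPM in the 9 line libraries (median 38.4) against 184 and 155 CPM in MSC (log2 fold change -2.35 ± 0.29 (SE), adjusted p = 3.7e-06). Bmp1, which cuts the propeptide from the carboxyl end of procollagen, was at 29.7 to 48.3 CPM in the 9 line libraries (median 42.3) against 164 and 156 CPM in MSC, with no overlap (log2 fold change -2.04 ± 0.26 (SE), adjusted p = 5.7e-06). Adamts2, which cuts the other end, was at 8.88 to 30.4 CPM in the 9 line libraries (median 16.9) against 103 and 146 CPM in MSC, again with no overlap (log2 fold change -2.86 ± 0.49 (SE), adjusted p = 1.5e-04). Adamts14, a protease of the same family as Adamts2, went the other way, at 22.0 to 56.5 CPM in the 9 line libraries (median 43.8) against 3.33 and 9.04 CPM in MSC (log2 fold change 2.61 ± 0.50 (SE), adjusted p = 4.2e-04). Processing genes called higher numbered 1 without MSC 1 and 2 without MSC 2.

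Proteoglycans, sugar-bearing proteins that space and coat collagen fibres, had 3 of 11 tested genes higher and 3 lower in the lines (median 0.11). Dcn, Vcan and Hspg2 were higher, and Lum, Fmod and Podn lower. Biglycan (Bgn) was at 557 to 2313 CPM in the 9 line libraries (median 1429) against 1147 and 1089.6 CPM in MSC and overlapped (log2 fold change 0.21 ± 0.52 (SE), adjusted p = 0.8). Versican (Vcan), a large proteoglycan of loose matrix, was at 111 to 727 CPM in the 9 line libraries (median 335) against 15.9 and 65.6 CPM in MSC, with every line library higher (log2 fold change 3.03 ± 0.56 (SE), adjusted p = 3.1e-04). Fibromodulin (Fmod), which binds collagen fibrils, was at 0.659, 0 and 0.314 CPM in C12, 0, 0.0816 and 0.171 in ih_CTC, 2.49, 0.0752 and 0.454 in ih_DCTC and 163 and 27.1 in MSC and separated the groups the other way (adjusted p = 7.1e-06). The mean in MSC was 202 times that of the lines. Decorin (Dcn), a near relative of biglycan, was at 5.39, 2.74 and 33.0 CPM in C12, 693, 673 and 674 in ih_CTC, 656, 808 and 2210.0 in ih_DCTC and 22.2 and 60.5 in MSC: C12 lay below or within the MSC values, and ih_CTC and ih_DCTC far above. Its call in the mean (log2 fold change 2.45 ± 0.90 (SE), adjusted p = 0.041) was lost without MSC 1 (adjusted p = 0.31), without MSC 2 (0.083), without any of the ih_CTC libraries (0.052 to 0.053) and without ih_DCTC 3 (0.055). It was also lost when ih_CTC, ih_DCTC or ih_BCTC was left out (0.15, 0.28 and 0.057), with no count filter (0.071) or with the intron share in the model (0.094). Proteoglycan genes called higher numbered 1 without MSC 1 and 2 without MSC 2.

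Matrix glycoproteins and elastic fibre genes had 6 of 24 tested genes higher and 9 lower in the lines (median 0.04). Fn1, Fbln1, Fbln2, Efemp1, Nid1 and Thbs2 were higher, and Sparc, Fbln5, Mfap2, Nid2, Postn, Thbs1, Tnc, Ctgf and Wisp2 lower. Nid1 lost its call under 10 of the 24 alternatives, and Sparc under 7. Efemp1, a fibulin of elastic fibres, was at 789, 731 and 538 CPM in C12, 499, 484 and 554 in ih_CTC, 217, 199.7 and 203 in ih_DCTC and 5.31 and 12.1 in MSC. Every line library was higher by a wide margin (log2 fold change 5.58 ± 0.55 (SE), adjusted p = 3.1e-07). Its close relative Efemp2, also called fibulin 4, was at 126 to 277 CPM in the 9 line libraries (median 172) against 207 and 149 CPM in MSC and overlapped (log2 fold change 0.00 ± 0.34 (SE), adjusted p = 1). Thrombospondin 2 (Thbs2) was higher in every line library, at 547 to 2433 CPM in the 9 line libraries (median 1131) against 212 and 216 CPM in MSC (log2 fold change 2.35 ± 0.47 (SE), adjusted p = 6.3e-04). So was fibulin 2 (Fbln2), at 350.3 to 980.2 CPM in the 9 line libraries (median 639) against 99.98 and 102 CPM in MSC (log2 fold change 2.75 ± 0.44 (SE), adjusted p = 8.3e-05). Ctgf, a secreted protein induced by TGF-beta and by mechanical load, was at 3.81 to 94.5 CPM in the 9 line libraries (median 25.1) against 819 and 550.0 CPM in MSC (log2 fold change -4.80 ± 0.66 (SE), adjusted p = 1.6e-05). Its relative Cyr61 overlapped at 37.6 to 697 CPM in the 9 line libraries (median 321) against 239.7 and 258 CPM in MSC (log2 fold change 0.08 ± 0.73 (SE), adjusted p = 0.96). Periostin (Postn), a matrix protein of bone and scar, was at 0 to 0.816 CPM in the 9 line libraries (median 0.257) against 47.9 and 47.2 CPM in MSC; the MSC mean was 161 times the line mean (adjusted p = 3.8e-06). Fibronectin (Fn1), which links cells to matrix, was at 3205 to 7380.1 CPM in the 9 line libraries (median 6359) against 2566 and 1746 CPM in MSC. Its call (log2 fold change 1.47 ± 0.49 (SE), adjusted p = 0.025) was lost without MSC 1 (adjusted p = 0.087), without MSC 2 (0.21) and without the 3 line libraries of low intron share (0.0503). Glycoprotein genes called higher numbered 3 without MSC 1 and 5 without MSC 2.

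Contractile genes were the stromal list that fell furthest by median after fat lineage, with 2 of 14 tested genes higher and 9 lower in the lines (median -2.22). The lower genes were Acta2, Tagln, Cnn1, Cnn2, Myl9, Tpm2, Actg2, Lmod1 and Synpo2, and the higher ones Cnn3 and Smtn. The lower count was 9 without MSC 1 and 9 without MSC 2. These genes encode the actin fibres of smooth muscle and myofibroblasts, and many are switched on by serum response factor, which binds a DNA element called the CArG box. The stretch of 250 bases before the gene start is shown for Acta2 and Myl9, the members with the largest falls among those with a match. Capitals mark CArG-like matches, CCNNNNNNGG in which at least 5 of the 6 N are A or T (RefSeq, GRCm38.p6, given 5′ to 3′ on the gene's strand).
Acta2 (chr19:34255374-34255623, minus strand): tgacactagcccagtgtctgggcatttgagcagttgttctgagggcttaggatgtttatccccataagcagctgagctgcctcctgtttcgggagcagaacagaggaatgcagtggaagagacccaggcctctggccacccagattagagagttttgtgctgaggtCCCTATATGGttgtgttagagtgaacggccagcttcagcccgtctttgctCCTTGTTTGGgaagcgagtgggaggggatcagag
Myl9 (chr2:156775214-156775463, plus strand): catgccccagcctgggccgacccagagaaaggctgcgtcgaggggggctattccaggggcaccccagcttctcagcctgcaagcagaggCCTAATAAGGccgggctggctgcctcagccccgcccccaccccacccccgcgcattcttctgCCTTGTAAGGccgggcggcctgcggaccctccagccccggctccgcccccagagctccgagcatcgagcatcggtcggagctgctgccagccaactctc
In Acta2 the matches begin 84 and 34 bases before the start and each has 1 G or C in its core. In Myl9 they begin 161 bases before it, with an all A or T core, and 99 bases before it, with 1 G. The motif is its own reverse complement, so both strands were searched, and 8.59% of the 32851 promoters in the table held such a match (1.47% with all 6 core bases A or T). Of 16 contractile genes, 12 had a promoter in the table, and 3 of them (Acta2, Myl9 and Cnn2) held a match. A match is a description of these letters only. Coordinates of genes below are those of the deposited annotation, for which no build is stated.

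Smooth muscle actin (Acta2, ENSMUSG00000035783, chromosome 19, 34241090 to 34255336) was at 38.6, 28.1 and 31.5 CPM in C12, 21.4, 21.0 and 11.9 in ih_CTC, 1.62, 1.43 and 15.2 in ih_DCTC and 1748 and 950.4 in MSC. Every line library was below MSC, most of all ih_DCTC 1 and 2 (log2 fold change -6.46 ± 0.62 (SE), adjusted p = 2.1e-07). Transgelin (Tagln, ENSMUSG00000032085, chromosome 9, 45929628 to 45936058), which binds actin filaments, was at 0.440, 0.110 and 0.784 CPM in C12, 3.94, 3.59 and 2.06 in ih_CTC, 0.623, 0.301 and 0.272 in ih_DCTC and 695 and 517 in MSC (log2 fold change -9.49 ± 0.34 (SE), adjusted p = 7.7e-13). Its fall was the largest in the list among genes with more than 3 counts in every group. The myosin light chain gene Myl9 was at 0.548 to 6.17 CPM in the 9 line libraries (median 2.14) against 435 and 260.3 CPM in MSC (log2 fold change -7.43 ± 0.57 (SE), adjusted p = 1.0e-08). Calponin (Cnn1), a brake on myosin, was at 0.220 to 13.2 CPM in the 9 line libraries (median 1.39) against 34.8 and 9.57 CPM in MSC (log2 fold change -3.88 ± 0.53 (SE), adjusted p = 1.2e-05). The gut smooth muscle actin Actg2 was at 0 to 0.329 CPM in the 9 line libraries (median 0) against 194 and 82.5 CPM in MSC; the MSC mean was 1403 times that of the lines (adjusted p = 1.1e-08). Leiomodin (Lmod1), which seeds actin filaments, was at 0 to 0.440 CPM in the 9 line libraries (median 0.171) against 35.2 and 11.4 CPM in MSC (adjusted p = 3.9e-07). The general tropomyosin and caldesmon genes behaved otherwise: Tpm1 overlapped at 391 to 818 CPM in the 9 line libraries (median 536) against 599.6 and 562 CPM in MSC (log2 fold change -0.02 ± 0.29 (SE), adjusted p = 0.98). Cald1 overlapped at 209 to 709.8 CPM in the 9 line libraries (median 479) against 402 and 388 CPM in MSC (log2 fold change 0.22 ± 0.31 (SE), adjusted p = 0.63). Smoothelin (Smtn) was higher, at 87.8 to 411 CPM in the 9 line libraries (median 102) against 39.0 and 48.9 CPM in MSC (log2 fold change 1.75 ± 0.36 (SE), adjusted p = 9.7e-04). Contractile genes called higher numbered 1 without MSC 1 and 1 without MSC 2. MDSC means of Acta2, Tagln and Myl9 were 8.58, 4.52 and 2.09 CPM.

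Surface proteins used to sort mesenchymal stem cells had 4 of 18 tested genes higher and 5 lower in the lines (median -0.45, or -0.26 with genes at 3 or fewer counts in a group entered by their pooled counts, floored at 3). Pdgfra, Thy1, Ly6a and Cspg4 were higher, and Eng, Alcam, Mcam, Cd200 and Itgb1 lower. Itgb1 lost its call under 15 of the 24 alternatives. Pdgfrb, a PDGF receptor of pericytes and stroma, was at 116, 136 and 165 CPM in C12, 122, 129 and 122 in ih_CTC, 97.1, 61.8 and 94.2 in ih_DCTC and 115 and 122 in MSC and overlapped (log2 fold change -0.06 ± 0.42 (SE), adjusted p = 0.94). Its sister receptor Pdgfra was at 122, 105 and 196 CPM in C12, 176, 206 and 191 in ih_CTC, 529.5, 428 and 566 in ih_DCTC and 23.1 and 49.4 in MSC, higher in all 9 libraries and most in ih_DCTC (log2 fold change 2.72 ± 0.48 (SE), adjusted p = 1.9e-04). Ly6a, which encodes the SCA-1 antigen, was at 59.0 to 377 CPM in the 9 line libraries (median 124) against 13.8 and 37.5 CPM in MSC, with no overlap. Its call (log2 fold change 2.53 ± 0.61 (SE), adjusted p = 0.0032) was lost without MSC 1 (adjusted p = 0.084). Cspg4, the pericyte proteoglycan NG2, was at 8.65 to 149 CPM in the 9 line libraries (median 41.9) against 1.35 and 4.83 CPM in MSC (log2 fold change 3.65 ± 0.72 (SE), adjusted p = 5.6e-04). Endoglin (Eng), a TGF-beta coreceptor known as CD105, was lower in every line library, at 8.12 to 47.8 CPM in the 9 line libraries (median 28.6) against 102 and 103 CPM in MSC (log2 fold change -2.06 ± 0.26 (SE), adjusted p = 5.1e-06). Alcam, the adhesion molecule CD166, was at 12.6 to 65.4 CPM in the 9 line libraries (median 14.8) against 219 and 141 CPM in MSC (log2 fold change -3.12 ± 0.36 (SE), adjusted p = 2.0e-06). Cd44, the receptor for hyaluronan, overlapped at 122 to 398 CPM in the 9 line libraries (median 280.0) against 369 and 317 CPM in MSC (log2 fold change -0.53 ± 0.37 (SE), adjusted p = 0.29). Vcam1, to which leukocytes bind, overlapped at 21.0 to 194 CPM in the 9 line libraries (median 72.6) against 60.4 and 122 CPM in MSC (log2 fold change -0.38 ± 0.43 (SE), adjusted p = 0.54). Lepr, the leptin receptor that marks marrow stroma, was low on both sides, at 0.150 to 1.92 CPM in the 9 line libraries (median 0.784) against 1.25 and 4.48 CPM in MSC (log2 fold change -1.79 ± 0.80 (SE), adjusted p = 0.09). It passed without ih_DCTC 3 (adjusted p = 0.048) and with the intron share in the model (0.0066). Surface markers called higher numbered 2 without MSC 1 and 4 without MSC 2, and surface markers called lower numbered 3 without MSC 1 and 4 without MSC 2.

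Transcription factors of mesenchyme were the list with the largest share of higher genes, 10 of 19 tested genes higher and 1 lower in the lines (median 1.87). The higher ones were Prrx1, Twist1, Twist2, Snai1, Zeb1, Foxc2, Osr1, Osr2, Nr2f1 and Nr2f2. Without MSC 1 the higher count was 8 and without MSC 2 it was 9. Twist1 and Twist2 hold mesenchymal cells undifferentiated during development. Twist1 (ENSMUSG00000035799, chromosome 12, 33957671 to 33959817) was at 69.6, 71.4 and 67.2 CPM in C12, 48.3, 49.8 and 53.1 in ih_CTC, 160.5, 118 and 183 in ih_DCTC and 7.71 and 10.2 in MSC (log2 fold change 3.18 ± 0.35 (SE), adjusted p = 1.3e-06). Twist2 (ENSMUSG00000007805, chromosome 1, 91801461 to 91848028) was at 67.5, 80.6 and 44.9 CPM in C12, 126, 119.8 and 106 in ih_CTC, 131, 147 and 89.0 in ih_DCTC and 1.15 and 2.37 in MSC (log2 fold change 5.77 ± 0.65 (SE), adjusted p = 1.4e-06). All 9 line libraries exceeded both MSC libraries for each. Osr1, a factor of limb and kidney mesenchyme, was at 47.1 to 129 CPM in the 9 line libraries (median 71.2) against 4.69 and 11.4 CPM in MSC (log2 fold change 3.22 ± 0.63 (SE), adjusted p = 5.5e-04). The nuclear receptor Nr2f2 was at 21.5 to 97.7 CPM in the 9 line libraries (median 58.3) against 2.71 and 5.18 CPM in MSC (log2 fold change 3.79 ± 0.59 (SE), adjusted p = 5.3e-05). Prrx1, a factor of limb bud mesenchyme, was at 115, 69.0 and 198 CPM in C12, 529.9, 592 and 572 in ih_CTC, 473, 818 and 791 in ih_DCTC and 81.8 and 119 in MSC. C12 overlapped MSC and the other two lines did not (log2 fold change 1.87 ± 0.38 (SE), adjusted p = 6.7e-04). Tbx15 and Tbx18, T-box factors of limb and body wall mesenchyme, overlapped, with log2 fold changes of 0.20 (adjusted p = 0.74) and 0.29 (adjusted p = 0.75). The 1 lower gene was Zeb2, at 16.6 to 99.8 CPM in the 9 line libraries (median 73.8) against 188 and 198 CPM in MSC, of which MDSC had 131 CPM. Its call (log2 fold change -1.69 ± 0.48 (SE), adjusted p = 0.0095) was lost without MSC 1 (adjusted p = 0.064) and without MSC 2 (0.071).

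Factors by which marrow stroma feeds other cells had 4 of 14 tested genes higher and 4 lower in the lines (median 0.25). Il6, Lif, Grem1 and Fgf7 were higher, and Cxcl12, Il7, Igf1 and Bmp4 lower. In none of the higher genes did all 9 line libraries lie above both MSC libraries. In 3 of the 4 lower genes all lay below. Bmp4 lost its call under 5 of the 24 alternatives, and Grem1 under 5. Igf1 (ENSMUSG00000020053, chromosome 10, 87858265 to 87937042), an insulin-like growth factor made by stroma and also by macrophages, was at 0.659, 0.329 and 0.941 CPM in C12, 0.385, 0.571 and 0.599 in ih_CTC, 0, 0.602 and 0.454 in ih_DCTC and 329.5 and 341 in MSC. It was under 1 CPM in every line library (log2 fold change -9.32 ± 0.36 (SE), adjusted p = 1.5e-12), while MDSC had 2.87 CPM. Cxcl12 (ENSMUSG00000061353, chromosome 6, 117168535 to 117181367), the chemokine that holds blood-forming cells in marrow, was at 3.74, 1.53 and 4.94 CPM in C12, 20.8, 23.8 and 63.9 in ih_CTC, 42.2, 25.2 and 59.2 in ih_DCTC and 1502 and 575 in MSC. All line libraries were lower, C12 the lowest (log2 fold change -5.90 ± 0.69 (SE), adjusted p = 2.4e-06). Interleukin 7 (Il7), which supports lymphocyte growth, was low in MSC and lower in the lines, at 0 to 1.96 CPM in the 9 line libraries (median 0.288) against 4.79 and 7.20 CPM in MSC (adjusted p = 8.9e-05). Lif, a cytokine of the interleukin 6 family, was at 18.8, 9.32 and 31.0 CPM in C12, 302, 333 and 378 in ih_CTC, 278, 352 and 987 in ih_DCTC and 5.73 and 10.7 in MSC. C12 overlapped MSC, and ih_CTC and ih_DCTC were far above (log2 fold change 4.22 ± 0.63 (SE), adjusted p = 3.9e-05). Csf1, the growth factor of macrophages, overlapped at 379 to 969 CPM in the 9 line libraries (median 650.5) against 323 and 616 CPM in MSC (log2 fold change 0.41 ± 0.33 (SE), adjusted p = 0.36). Niche factors called higher numbered 1 without MSC 1 and 2 without MSC 2.

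Bone genes had 3 of 11 tested genes higher and 5 lower in the lines (median -0.53), cartilage genes 2 of 7 higher and 3 lower (median 0.28, or 1.37 with genes of 3 or fewer counts in a group entered by pooled counts), and fat genes 2 of 7 higher and 5 lower (median -4.25). The higher bone genes were Runx2, Phex and Msx2, and the lower ones Sp7, Alpl, Ibsp, Dlx5 and Bmp2. Sp7, a factor that commits cells to bone, was at 0 to 1.37 CPM in the 9 line libraries (median 0.220) against 23.9 and 18.7 CPM in MSC (adjusted p = 1.3e-07). Alkaline phosphatase (Alpl), which prepares matrix for mineral, was at 0.220, 0.219 and 0.314 CPM in C12, 0, 0 and 0 in ih_CTC, 2.74, 2.26 and 7.53 in ih_DCTC and 131 and 65.5 in MSC, all lower (adjusted p = 3.3e-08). The bone matrix gene Ibsp had 1 count over all 9 line libraries, against 11.5 and 14.4 CPM in MSC, a ratio of 1275 (95% counting interval 227 to 50531). Its edgeR adjusted p was 1.1e-05, and DESeq2 gave 0.14. Osteopontin (Spp1), a phosphoprotein of bone and of activated macrophages, overlapped at 1550.0 to 11395 CPM in the 9 line libraries (median 4492) against 5447 and 5060.1 CPM in MSC (log2 fold change -0.13 ± 0.45 (SE), adjusted p = 0.87). Runx2, the factor at the head of the bone lineage, was at 30.9 to 108 CPM in the 9 line libraries (median 69.4) against 13.8 and 15.1 CPM in MSC, higher in every line library (log2 fold change 2.27 ± 0.57 (SE), adjusted p = 0.0043). That call was lost without MSC 1 (adjusted p = 0.063). The count of higher bone genes was 1 without MSC 1 and 2 without MSC 2.

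In the cartilage list Sox9, the factor that starts cartilage, was at 36.4 to 172 CPM in the 9 line libraries (median 84.3) against 3.96 and 8.78 CPM in MSC (log2 fold change 3.79 ± 0.53 (SE), adjusted p = 1.8e-05). Col2a1, the cartilage collagen, was at 0.0816 to 11.2 CPM in the 9 line libraries (median 1.87) against 348 and 94.4 CPM in MSC (log2 fold change -6.59 ± 0.58 (SE), adjusted p = 6.5e-08). Each of the 2 genes separated all line libraries from MSC, in opposite directions. Sox5 was the other higher cartilage gene, and Comp and Col10a1 were also lower. In the fat list Pparg, Cebpa, Fabp4, Lpl and Zfp423 were lower, and Cebpb and Cebpd higher. Cebpb lost its call under 5 of the 24 alternatives. Cebpa, needed for fat cells and for granulocytes, was at 0.301 to 4.45 CPM in the 9 line libraries (median 2.19) against 337 and 212 CPM in MSC (log2 fold change -7.14 ± 0.43 (SE), adjusted p = 3.7e-10). Lipoprotein lipase (Lpl) was at 13.7 to 132 CPM in the 9 line libraries (median 37.1) against 2447 and 956 CPM in MSC (log2 fold change -5.34 ± 0.48 (SE), adjusted p = 8.4e-08). Pparg, the factor at the head of fat cell formation, was at 0.192 to 7.25 CPM in the 9 line libraries (median 2.12) against 40.3 and 37.6 CPM in MSC (log2 fold change -4.25 ± 0.40 (SE), adjusted p = 1.7e-07). Macrophages also express Lpl, Pparg and Cebpa, and MDSC means were 10.1, 2.29 and 35.4 CPM. Cebpd, an early factor of the same family, was higher at 52.5 to 566 CPM in the 9 line libraries (median 268) against 33.7 and 33.6 CPM in MSC (log2 fold change 2.80 ± 0.38 (SE), adjusted p = 1.4e-05). The count of higher fat genes was 1 without MSC 1, 1 without MSC 2 and 1 without ih_DCTC.

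Proteases that cut matrix, and their inhibitors, had 3 of 21 tested genes higher and 7 lower in the lines (median -0.75). Mmp2, Mmp3 and Mmp11 were higher, and the lower ones included Mmp13, Mmp23, Plau, Serpine2, Ctsk and Fap. Mmp11 lost its call under 5 of the 24 alternatives. Mmp14, the membrane-bound collagenase, overlapped at 69.6 to 435 CPM in the 9 line libraries (median 161) against 116 and 214 CPM in MSC (log2 fold change 0.00 ± 0.31 (SE), adjusted p = 1). Timp2, its partner and inhibitor, overlapped at 417 to 1353 CPM in the 9 line libraries (median 683) against 839 and 603 CPM in MSC (log2 fold change 0.08 ± 0.39 (SE), adjusted p = 0.92). Fap, the fibroblast activation protein of wound and tumour stroma, was at 0 to 1.27 CPM in the 9 line libraries (median 0.110) against 9.27 and 13.0 CPM in MSC (adjusted p = 2.0e-06). Cathepsin K (Ctsk), the collagen-cutting enzyme of osteoclasts that fibroblasts make too, was at 0, 0 and 0 CPM in C12, 1.25, 0.490 and 0.428 in ih_CTC, 0.374, 0.376 and 3.36 in ih_DCTC and 63.4 and 29.9 in MSC. C12 had 0 counts, at least 467-fold lower than MSC, and the other two lines were also below (adjusted p of the mean = 2.8e-07). Mmp3, stromelysin, was at 0.989, 2.30 and 0.862 CPM in C12, 9.04, 5.63 and 5.48 in ih_CTC, 42.0, 43.9 and 276 in ih_DCTC and 0 and 0.439 in MSC (log2 fold change 5.40 ± 1.09 (SE), adjusted p = 7.2e-04), highest in ih_DCTC. Mmp23 was lower in all, at 0 to 4.90 CPM in the 9 line libraries (median 0.245) against 55.8 and 39.8 CPM in MSC (log2 fold change -6.64 ± 0.50 (SE), adjusted p = 8.8e-09). Protease genes called higher numbered 1 without MSC 1 and 1 without MSC 2.

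Genes of TGF-beta and BMP signalling, which steers stromal cells towards scar or bone, had 4 of 19 tested genes higher and 8 lower in the lines (median -0.12). Tgfbr3, Bmper, Smad3 and Ltbp3 were higher, and the lower ones included Tgfb1, Tgfb2, Tgfb3, Tgfbr1, Tgfbr2, Inhbb and Fst. Fst lost its call under 16 of the 24 alternatives. Of the ligands, Tgfb1 was at 25.3 to 115 CPM in the 9 line libraries (median 46.3) against 349 and 313 CPM in MSC (log2 fold change -2.70 ± 0.32 (SE), adjusted p = 2.5e-06) with 159 CPM in MDSC. Tgfb2 was at 0.163 to 10.6 CPM in the 9 line libraries (median 2.64) against 27.8 and 25.4 CPM in MSC (log2 fold change -3.46 ± 0.57 (SE), adjusted p = 9.8e-05) with 0.0401 CPM in MDSC. The coreceptor Tgfbr3 was higher at 86.2 to 363 CPM in the 9 line libraries (median 239.8) against 33.7 and 32.9 CPM in MSC (log2 fold change 2.71 ± 0.44 (SE), adjusted p = 9.6e-05). Smad3, which carries the signal to the nucleus, was higher at 71.7 to 137 CPM in the 9 line libraries (median 108) against 29.6 and 31.4 CPM in MSC (log2 fold change 1.80 ± 0.21 (SE), adjusted p = 2.4e-06). Each of these 4 genes separated all line libraries from MSC. Bmpr2, a BMP receptor, overlapped at 8.11 to 74.0 CPM in the 9 line libraries (median 54.7) against 49.5 and 47.4 CPM in MSC (log2 fold change -0.12 ± 0.67 (SE), adjusted p = 0.92), and was called lower with the intron share in the model (log2 fold change -1.31, adjusted p = 0.0037). The count of lower genes was 5 without MSC 1, without MSC 2, without C12 or without ih_CTC, and that of higher genes was 2 without MSC 1.

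Adhesion receptors had 6 of 15 tested genes higher and 5 lower in the lines (median 0.47). Itga3, Itga7, Itgbl1, Cdh2, Cdh13 and Ncam1 were higher, and Itga8, Itga11, Itgb3, Itgb5 and Cdh11 lower. Itga8 lost its call under 9 of the 24 alternatives, and Cdh2 under 8. Itga3, a laminin receptor chain, was at 84.1 to 497 CPM in the 9 line libraries (median 192) against 19.9 and 20.7 CPM in MSC (log2 fold change 3.47 ± 0.35 (SE), adjusted p = 3.2e-07). The vitronectin receptor chain Itgb5 was at 109 to 289.6 CPM in the 9 line libraries (median 127) against 647 and 448 CPM in MSC (log2 fold change -1.87 ± 0.25 (SE), adjusted p = 1.1e-05). Cdh11, the cadherin of bone-forming and connective tissue cells, was at 0, 0.110 and 0 CPM in C12, 36.1, 40.6 and 38.1 in ih_CTC, 0, 2.03 and 22.2 in ih_DCTC and 95.7 and 156 in MSC, near 0 in C12 and below MSC in all (adjusted p = 3.1e-05). Adhesion genes called higher numbered 1 without MSC 1 and 5 without MSC 2. Of the fibroblast markers 4 of 13 were higher, S100a4, Cd34, Has1 and Ccl11 (median 0.89, or 1.45 with genes of 3 or fewer counts in a group entered by pooled counts). S100a4 lost its call under 14 of the 24 alternatives. Cd34 (ENSMUSG00000016494, chromosome 1, 194938819 to 194961279), a sialomucin of fibroblasts and blood progenitors, was at 502, 450.3 and 580.4 CPM in C12, 416, 399 and 536 in ih_CTC, 217, 275 and 319.5 in ih_DCTC and 2.29 and 7.55 in MSC. Every line library was far above MSC (log2 fold change 6.32 ± 0.59 (SE), adjusted p = 1.4e-07). Vimentin (Vim), the filament protein of mesenchymal cells and leukocytes alike, was at 2222 to 6582 CPM in the 9 line libraries (median 4074) against 4801 and 3619.9 CPM in MSC (log2 fold change -0.04 ± 0.37 (SE), adjusted p = 0.97), and MDSC had 1481 CPM. The count of higher fibroblast markers was 1 without MSC 1, 2 without MSC 2 and 2 without C12.

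Over all genes, the largest changes were ranked among called genes with at least 20 CPM on the higher side and no overlap of libraries, leaving out predicted genes and pseudogenes. Among the 10 largest falls were Cd300lh, C1qa, Emr1, Fcrls, Clec12a, C1qb, Bcl2a1b, Ms4a6d and Ctss. C1qa, a complement chain made by macrophages, was at 0 to 0.181 CPM in the 9 line libraries (median 0.0961) against 586 and 408 CPM in MSC, and cathepsin S (Ctss) at 0.124 to 0.877 CPM in the 9 line libraries (median 0.376) against 2233 and 1458 CPM in MSC. Among the 10 largest rises were Xlr3a, Msln, Cda, Rhox5, Pkp1, Cck, Prl2c2, Il33 and Ngef. Mesothelin (Msln), a surface protein of mesothelium, was at 93.9, 92.7 and 109 CPM in C12, 158, 156 and 123 in ih_CTC, 163, 104 and 140.3 in ih_DCTC and 0 and 0.0878 in MSC, a ratio of 2649 (95% counting interval 475 to 104629). Of 8 mesothelial markers 5 had counts enough to be tested, and Msln and Krt18 were higher in the lines. The 8 summed to 107 to 193 CPM in the lines and 1.25 and 9.57 in MSC, with Upk3b at most 0.235 CPM, Lrrn4 at most 0.124 and Muc16 at 0 counts in the lines. In ih_STC_BM the same markers summed to 409.5, 419.2 and 124.1 CPM. Against it, 2 of the 5 tested were lower in the lines, beside 7.02% of all genes. The cytokine gene Il33 was at 11.7, 10.8 and 1.88 CPM in C12, 473, 479 and 165 in ih_CTC, 44.6, 86.6 and 73.9 in ih_DCTC and 0 and 0.176 in MSC, spread over a wide range among the lines. Xlr3a, Rhox5, Prl2c2, Bcl2a1b and Cd300lh have closely related gene copies among which reads can be divided, so their values are uncertain.

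The 3 lines were not alike. Of the 231 stromal genes, 98 (42.4%) differed among C12, ih_CTC and ih_DCTC in an edgeR test of all 3 that does not use MSC, beside 21.6% of all genes tested. Without the 3 line libraries of an intron share under 3% (C12 1, C12 2 and ih_DCTC 1) this count was 47. Against MSC, C12 had 51 stromal genes higher and 74 lower (beside 14.7% and 18.4% of all genes), ih_CTC 52 and 69 (beside 14.7% and 19.9%), and ih_DCTC 61 and 49 (beside 16.0% and 18.1%). In each of the 3 lines 31 were higher and 36 lower, beside 7.77% and 11.9% of all genes; these tests share the MSC libraries. Ngfr, the nerve growth factor receptor known as CD271, was at 67.9, 106 and 32.1 CPM in C12, 0.385, 0.490 and 0.257 in ih_CTC, 0, 0 and 0.181 in ih_DCTC and 0.937 and 2.72 in MSC, high in C12 alone (adjusted p among the lines = 1.0e-05). Thy1, the antigen CD90, was at 1.87, 1.86 and 1.80 CPM in C12, 41.2, 42.6 and 67.6 in ih_CTC, 0.374, 0.376 and 4.90 in ih_DCTC and 0.312 and 1.23 in MSC and was by far the highest in ih_CTC (adjusted p among the lines = 3.0e-05). Its call in the mean of 3 lines (adjusted p = 0.0077) was lost without ih_CTC (0.22) or without MSC 1 (0.13).

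**Figure D5:**
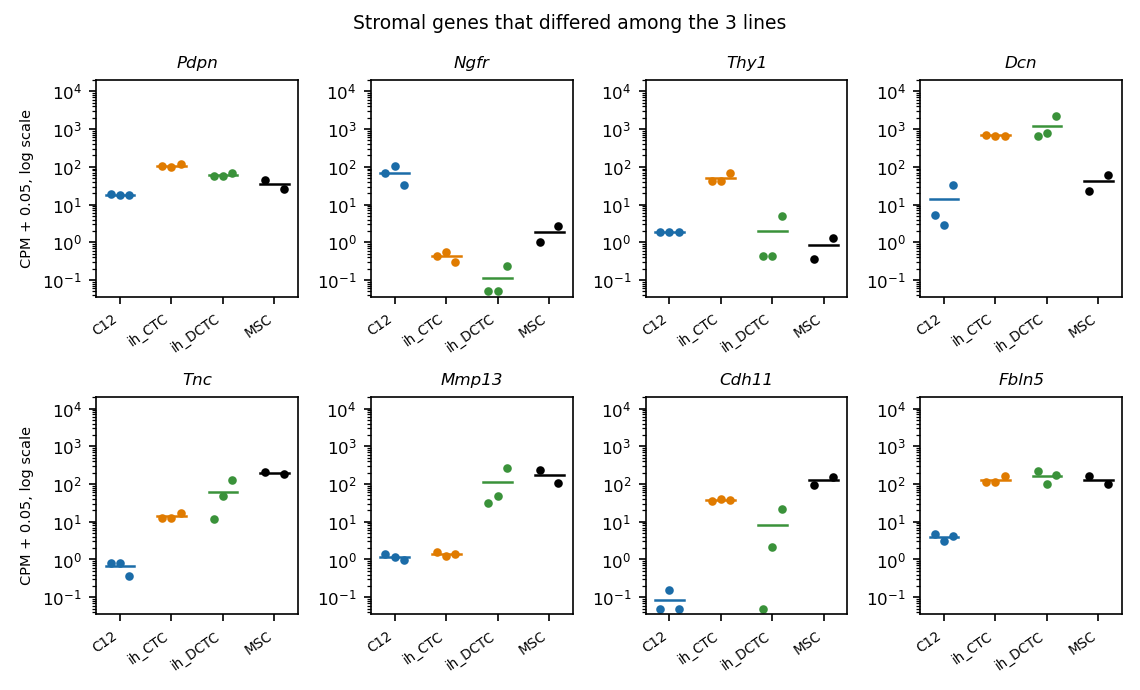
Level of 8 stromal genes that differed among the lines, in CPM plus 0.05 on a log axis, by group; points are libraries and bars are group means. Mmp13 is highest of the lines in ih_DCTC, Ngfr in C12 and Thy1 and Pdpn in ih_CTC. By group mean Dcn, Tnc, Cdh11 and Fbln5 are lowest in C12, with the Cdh11 libraries of C12 and ih_DCTC overlapping.

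Among the matrix genes that differed in the edgeR test of all 3 lines, which does not say which line differs, several had their lowest levels in C12. Tenascin C (Tnc), a matrix protein of wounds and tumours, was at 0.769, 0.767 and 0.314 CPM in C12, 12.2, 12.8 and 16.6 in ih_CTC, 11.8, 49.0 and 127 in ih_DCTC and 205 and 181 in MSC (adjusted p among the lines = 2.0e-04). Every line library was below MSC, and C12 was below the others. Fibulin 5 (Fbln5), an elastic fibre protein, was at 4.73, 2.96 and 4.08 CPM in C12, 111, 109.9 and 164 in ih_CTC, 218, 102 and 173 in ih_DCTC and 160.2 and 101 in MSC (adjusted p among the lines = 5.1e-05). Here ih_CTC and ih_DCTC overlapped MSC and C12 was far below. The lower call in the mean of 3 lines (log2 fold change -1.58 ± 0.46 (SE), adjusted p = 0.011) was lost without MSC 1 (adjusted p = 0.2). Without C12 the mean of the other two lines was 0.15 above MSC on the log2 scale (adjusted p = 0.86). Collagenase 3 (Mmp13) was at 1.32, 1.10 and 0.941 CPM in C12, 1.54, 1.22 and 1.37 in ih_CTC, 31.8, 49.2 and 264 in ih_DCTC and 233 and 105 in MSC (adjusted p among the lines = 1.8e-05), with 1 ih_DCTC library above both MSC libraries. Podoplanin (Pdpn), a mucin-like protein of lymph vessels and fibroblasts, was at 18.7, 18.3 and 18.03 CPM in C12, 104, 97.9 and 116 in ih_CTC, 57.0, 56.6 and 69.5 in ih_DCTC and 43.6 and 25.6 in MSC (adjusted p among the lines = 6.3e-05): C12 lay below MSC and the other two lines above. The group nearest to ih_DCTC 2, ih_BCTC, had means of 28.7 CPM of Mmp13 and 32.8 of Tnc.

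ih_STC_BM, the line labelled as a transformed mesenchymal stem cell, gave another stromal reference: the macrophage genes summed to 102, 90.3 and 65.1 CPM in its libraries, against 31434 and 23737 in MSC. Against it, 39 of the 231 stromal genes were higher and 21 lower in the mean of the 3 lines, beside 4.76% and 7.02% of all genes tested. The ih_STC_BM libraries were 1.04 to 1.57 from each other by profile distance, and ih_STC_BM 2 was nearest to C12 3, at 1.24. Several genes far apart between the lines and MSC did not pass the threshold here. With a group so spread, that does not show equal levels. Acta2 was at 44.0, 13.0 and 8.06 CPM there, Tagln at 0.123, 0.507 and 0.733 CPM, Igf1 at 0.617, 1.32 and 0.440 CPM and Cd34, high in the lines, at 748, 258 and 765 CPM. The differences of the lines from ih_STC_BM were -0.50 (adjusted p = 0.65), 0.88 (adjusted p = 0.28), -0.67 (adjusted p = 0.37) and -0.58 (adjusted p = 0.25) on the log2 scale. Cxcl12 was at 233, 208 and 10.7 CPM and lower in the lines at -3.12 (adjusted p = 0.0047), and periostin (Postn) at 6.41, 59.1 and 0.147 CPM, with an adjusted p of 1.6e-04. Thbs2 and Vcan were higher in the lines, at 1.43 (adjusted p = 0.018) and 2.12 (adjusted p = 0.0048).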

How the data were processed

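RNA was measured by sequencing of 20 bulk mouse libraries with an Illumina TruSeq kit, per the labels' protocols. The deposited gene table holds expected counts, which the authors estimated with RSEM 1.2.26 after STAR alignment, and the submitters' processing notes also name DESeq2. Of its values 8.37% are not whole. All values were rounded for the tests and the TMM factors, and the CPM levels were computed from the unrounded values with TMM-scaled library sizes. The deposited alignment table gives mapped and intron reads in percent. Genome build and annotation version are not given in the sources used here. All columns of per-sample values were mapped to a sample by its title.

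Genes with low counts were removed with filterByExpr by group (minimum count 10, minimum total 15), which left 15779 of 43432 genes. The 7 groups were fitted together with edgeR 4.0.16 (robust quasi-likelihood, 13 residual degrees of freedom, R 4.3.3), and the mean of C12, ih_CTC and ih_DCTC was compared with MSC at a Benjamini-Hochberg adjusted p under 0.05 over all genes tested. Intervals of ratios and floors of 3 counts cover counting error only. A gene with 3 or fewer counts in C12, ih_CTC, ih_DCTC or MSC is given without a fitted fold change.

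Genes named with values were, per list, the members that rose or fell most (4 at most each way) and 2 at most that changed least, a panel of well-known markers, the 10 largest rises and falls among called genes with no overlap of libraries and at least 20 CPM on the higher side, and the genes that differed most among the lines. Other names stand in lists of called members. A few genes are not reported here. The genes, lists and comparison were chosen with earlier results of these data known. Alternatives were other scalings (RLE and upper quartile), no count filter, DESeq2 1.42.0, limma-voom 3.58.1, only the compared libraries, glmTreat, a fold threshold, the intron share as a term, and leaving out each library or line. Those for low intron shares, for MDSC levels, for overlap of libraries and without ih_BCTC were chosen after seeing the data.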

Additional observations from a re-analysis of the deposited data

Results flagged for a closer look

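Stromal genes that behaved differently in the 3 lines may deserve another look. In the edgeR test among C12, ih_CTC and ih_DCTC, 98 of the 231 stromal genes differed, beside 21.6% of all genes. Of the 231, 3 differed in this way and were also called in opposite directions against MSC in different lines. Over all genes 84 of 15779 (0.532%) met both conditions. Among the 3 stromal genes were Ngfr, the nerve growth factor receptor (adjusted p among the lines = 1e-05), and Pdpn, podoplanin (6.3e-05). Ngfr was above MSC in C12 and below it in ih_DCTC, where it had very few counts. Pdpn was below MSC in C12 and above it in ih_CTC.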

How the results depend on the processing

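Leaving out 1 library at a time gave 1159 to 2711 genes higher and 2484 to 3652 lower in the lines (2451 and 3459 with all), and 27 to 63 stromal genes higher and 59 to 76 lower (61 and 74 with all). The lowest counts were those without MSC 1; without MSC 2 they were 1410, 2747, 42 and 64. The lone MSC library was then assumed to vary like the other groups. Against a log2 fold change of 1 (glmTreat), 1189 genes were higher and 2096 lower. The stromal genes that differed among the lines numbered 68 to 113 with 1 library left out, and 47 without the line libraries of an intron share under 3%. Under the other alternatives these counts over all genes and all stromal genes stayed within 1.5 times. Counts of single lists moved further: 21 of 30 moved by over 1.5 times under at least 1 alternative, 16 without MSC 1, 9 without MSC 2, 9 under glmTreat, 8 with calls limited to genes whose libraries did not overlap, and 1 to 3 each without C12, ih_CTC, ih_DCTC or ih_DCTC 3, with DESeq2, with a fold threshold, with the intron share as a term or without low intron shares. Of 119 called genes given with values or chosen for it, 83 kept call and direction throughout, and Fbln5 (0.155) reversed in the mean of ih_CTC and ih_DCTC alone. The causes of these changes were not tested. No paired analysis was possible because the labels give the libraries no replicate number or other pairing across groups.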
